A study of Mus musculus with 2 samples.

Results

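The 10 genes described here are those of the glycine cleavage system (Gldc, Amt, Gcsh, Dld), of serine and glycine exchange with folate (Shmt1, Shmt2, Mthfd2) and of serine synthesis (Phgdh, Psat1, Psph), out of 32285 genes counted. They were picked because Gldc was already known to be far higher in the tumor library than in the normal one. The levels in the 2 libraries are therefore given as a description. Gene expression was measured in single γδ T cells of C57BL/6J mice aged 18-20 weeks, in 1 library named IEL, of normal colon tissue, and 1 named TIL, of colon tumor. The labels give no treatment, tumor model, sort or number of mice, and their protocol text names tumor tissue for both samples. Each tissue has 1 library and so no replicate check. Differences are those of the 2 libraries, and the 95% intervals, given in brackets, reflect counting error alone.

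Glycine cleavage is carried out in mitochondria by the decarboxylase Gldc, the aminomethyltransferase Amt, the lipoyl carrier Gcsh and the dehydrogenase Dld, and it passes a carbon of glycine to folate. Serine is made from a glycolytic intermediate by Phgdh, Psat1 and Psph, and Shmt2 in mitochondria or Shmt1 in the cytosol splits it into glycine and a folate-bound carbon. Mthfd2 oxidises that folate in mitochondria, and the carbon feeds purine and thymidylate synthesis, which dividing T cells need. γδ T cells of the gut include intraepithelial cells with cytotoxic genes such as Gzma, and IL-17 producers marked by Il17a.

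The cells compared were 9087 IEL and 11803 TIL droplets in clusters named γδ T-like, with medians of 6853 and 6386 unique molecular identifiers (UMIs, each marking 1 captured transcript) per cell. A UMI of a γδ receptor constant gene (Trdc, Tcrg-C1, Tcrg-C2 or Tcrg-C4) was in 99.7% of IEL and 99.6% of TIL cells, and Trac without any of these was in 0.143% and 0.237%. The level of Trdc was 814 and 3950 CPM. Tumor myeloid-like cells, which should lack these genes, had such a UMI in 69.4% of 265 cells and Trdc at 996 CPM, so a UMI alone does not make a cell γδ. A UMI of Trac, the αβ receptor constant gene, was in 77.8% of IEL and 37.5% of TIL cells, and 22.0% of IEL and 61.6% of TIL droplets passing the filter had a γδ constant UMI and none of Trac. These genes therefore do not settle the label cell by cell. The libraries shared 33 cell barcodes, 28 of them between γδ T-like cells. Levels are UMIs of a gene per 1000000 UMIs (CPM) over the cells of a group. Transcript 3′ ends were counted, so levels are not divided by gene length. The haemoglobin genes, which mark red cells, summed to 0.190 CPM in IEL and 1371 CPM in TIL γδ T-like cells. The 7 neutrophil markers summed to 1.08 and 44.3 CPM, with 4 of 7 at 0 in IEL and none at 0 in TIL, and the 10 macrophage or monocyte markers to 3.05 and 22.6 CPM. Their part in the differences between the libraries was not tested.

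The promoters of Gldc and Phgdh are shown because, of the 10 genes, Phgdh had the lowest correlation with Gldc across the tumor clusters. RefSeq promoter windows (GRCm38.p6) were found for 10 of 10 genes, in 11 windows of 300 bases. The printed bases are the 250 upstream of the start, 5′ to 3′, at chr19:30175442-30175691 (minus strand) for Gldc and chr3:98339970-98340219 (minus strand) for Phgdh, with CpG dinucleotides in capitals.
Gldc: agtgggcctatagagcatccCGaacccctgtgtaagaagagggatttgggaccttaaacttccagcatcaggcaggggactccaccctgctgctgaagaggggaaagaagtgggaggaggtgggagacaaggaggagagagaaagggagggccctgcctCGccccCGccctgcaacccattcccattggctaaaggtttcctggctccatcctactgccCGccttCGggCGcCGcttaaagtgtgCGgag
Phgdh: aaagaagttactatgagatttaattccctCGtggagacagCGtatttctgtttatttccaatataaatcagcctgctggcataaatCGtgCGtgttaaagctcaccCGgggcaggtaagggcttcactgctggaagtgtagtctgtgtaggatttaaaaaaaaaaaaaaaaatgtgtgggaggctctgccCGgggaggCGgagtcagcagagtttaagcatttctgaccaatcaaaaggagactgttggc
The Gldc stretch held 8 CpG dinucleotides and the Phgdh stretch 7, beside a median of 6 over 32851 promoters. Of the motifs searched on both strands of the 300-base windows, 2 are given here: TGATGNAA (the core of the amino acid response element) and CACGTG (an E-box). None of the 11 windows held either of them, and they occurred in 3.97% and 7.15% of all promoters. This says only that these letters are not in these windows.

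Of the 10 genes, Gldc alone was higher in TIL and Phgdh and Mthfd2 were lower, by the rule of at least 5 CPM in either library, at least a 2-fold ratio and an interval that leaves out equality. By that rule 11.2% of the 9569 genes tested were higher in TIL and 17.6% lower. Amt and Shmt1 stayed under 5 CPM in both libraries, so 8 of the 10 genes were tested. Since the genes were picked on this contrast, nothing is read from these counts. The median log2 ratio of TIL over IEL was −0.05 over the 7 tested genes other than Gldc and −0.18 over all genes tested.

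**Figure D1:**
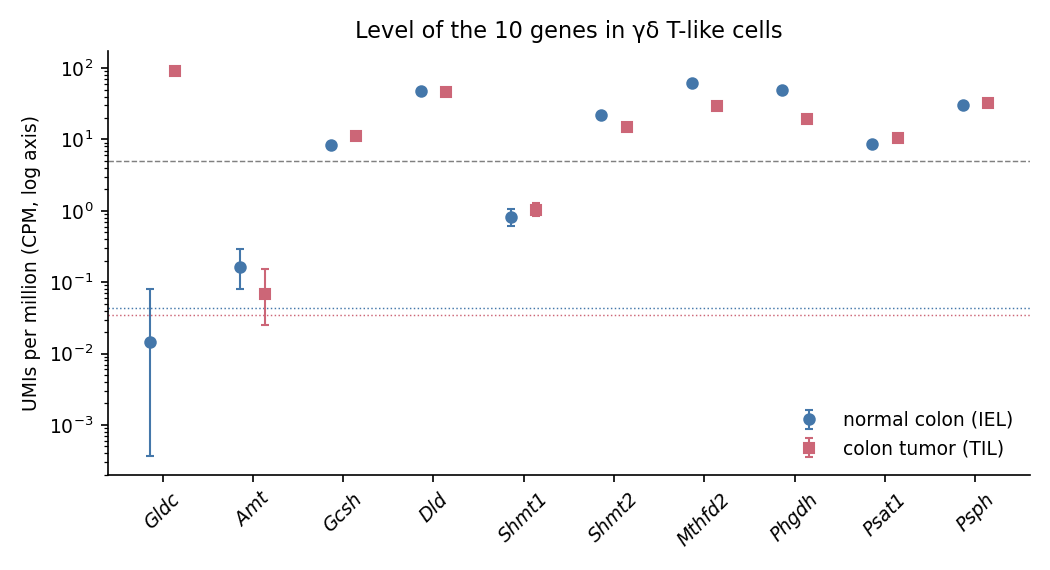
Level of each of the 10 genes in γδ T-like cells of normal colon (circles) and colon tumor (squares), in CPM on a log axis, with 95% Poisson intervals. The dashed line marks 5 CPM and the dotted lines the level of 3 UMIs per library. Gldc has 0.0146 CPM in the IEL cells and 91.9 in the TIL cells, while Amt lies far under 5 CPM in both.

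Gldc (chr19:30098447-30175429, minus strand), the decarboxylase that starts glycine cleavage, had 1 UMI in the IEL and 7953 UMIs in the TIL γδ T-like cells. Its levels were 0.0146 and 91.9 CPM, a log2 ratio of 12.62 (10.14 to 17.92). In share of cells, with every cell thinned to 2000 UMIs, Gldc was found in 0 of 9013 IEL cells, which allows a share of up to 0.0333%, and in 10.4% (9.84 to 10.96) of 11724 TIL cells. Without thinning it was found in 1 IEL cell and in 19.8% of TIL cells. TIL myeloid-like cells, which should lack Gldc, had a thinned share of 3.18% (1.29 to 6.45) and a level of 37.3 CPM (30.1 to 45.7) at a median of 6952 UMIs per cell. They also had Il17a at 1391 CPM, so T cell transcripts were counted in them. Their Gldc values are given below for reference, and how much of the Gldc in other cells is background was not tested.

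Amt (chr9:108296853-108302302, plus strand), the enzyme that hands the carbon to folate and without which cleavage of glycine is not completed, was close to undetected. It had 11 UMIs in the 68267337 of IEL and 6 in the 86523180 of TIL γδ T-like cells, or 0.161 and 0.0693 CPM, and the interval of the log2 ratio, −2.94 to 0.34, spanned 0. The tumor cells thus had a high level of the first enzyme of the system beside a level of Amt that this depth barely shows.

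The remaining parts of the system were present at like levels in both libraries. Gcsh (chr8:116981810-116993537, minus strand), the lipoyl carrier protein, had 8.42 CPM in IEL cells and 11.01 in TIL cells (log2 ratio 0.39, 0.24 to 0.54). Dld (chr12:31331277-31351453, minus strand), which also serves the pyruvate and 2-oxoglutarate dehydrogenases, was at 47.3 and 45.7 CPM, a log2 ratio of −0.05 (−0.12 to 0.02). None of the 9 tested genes of lipoate synthesis and of the other Dld enzymes passed the 2-fold rule in either direction. Their median log2 ratio was −0.49.

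Serine synthesis was split between its first step and the later ones. Phgdh (chr3:98313170-98339990, minus strand), which starts the pathway, had 49.4 CPM in IEL cells and 19.7 in TIL cells, 2.51-fold lower in TIL (2.37 to 2.66). Its thinned share was 8.90% (8.32 to 9.50) of IEL and 3.28% (2.97 to 3.62) of TIL cells. The next enzymes did not follow: the aminotransferase Psat1 (chr19:15904678-15947337, minus strand) was at 8.60 and 10.4 CPM, a log2 ratio of 0.27 (0.12 to 0.42). Psph (chr5:129765558-129787449, minus strand), the phosphatase that releases serine, was at 30.9 and 32.5 CPM, a log2 ratio of 0.07 (−0.01 to 0.16).

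Among the folate enzymes, mitochondrial Mthfd2 (chr6:83305691-83325908, minus strand) had 60.9 CPM in IEL cells and 29.6 in TIL cells, 2.06-fold lower in TIL (1.96 to 2.16). With a stricter cell filter the log2 ratio was −0.96 and with the median ratio of all genes set to 1 it was −0.86, both short of 2-fold. Its thinned share was 11.2% (10.6 to 11.9) of IEL and 5.36% (4.96 to 5.78) of TIL cells. Myeloid-like cells of the tumor, which may express these enzymes themselves, had a share of 5.45% (2.85 to 9.33) for Mthfd2 and 1.82% (0.498 to 4.59) for Phgdh. Shmt2 (chr10:127517123-127522444, minus strand), the mitochondrial serine hydroxymethyltransferase, was at 22.3 and 14.8 CPM, a log2 ratio of −0.60 (−0.70 to −0.49) that did not reach 2-fold. Shmt1 (chr11:60788104-60811718, minus strand), its cytosolic counterpart, was at 0.820 and 1.04 CPM. The 3′ ends of Shmt1 and Smcr8 and those of Shmt2 and Ndufa4l2 overlap on opposite strands, and whether counting used strand is not given in the sources used here.

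Across the wider pathway lists, genes passed the 2-fold rule in both directions between the libraries. Over all 9569 genes tested, 11.2% were higher in TIL and 17.6% lower. The lists are short, so their counts are a description. Of 13 tested genes of folate metabolism, 1 was higher in TIL, Ggh, a hydrolase of folate tails, at 60.1 against 25.8 CPM, and 1 was lower, Mthfd2. Of 8 tested serine and glycine transporters, Slc1a5 was higher at 208 against 91.2 CPM, and Slc38a2 (126 against 267 CPM) and the sideroflexin Sfxn2 (3.04 against 7.38 CPM) were lower. Of 12 tested genes of purine synthesis, Impdh1 was higher at 36.6 against 18.3 CPM, and Ppat, the first enzyme of the pathway, was lower at 14.5 against 36.7 CPM. Of the 12 purine genes, 10 had an interval under equality and 2 above it, with a median log2 ratio of −0.47, beside 54.9% of all genes tested with an interval under equality.

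The amino acid response list holds Atf4 and genes it is known to drive. Of its 19 tested genes, 4 were higher and 4 lower in TIL, beside 11.2% and 17.6% of all genes tested. The higher genes were Nupr1 (6.45 against 0.293 CPM), Ddit4 (73.9 against 16.1 CPM), Asns (5.22 against 1.79 CPM) and Slc7a5 (7.93 against 2.83 CPM). The lower genes were Ddit3 (18.2 against 240 CPM), Trib3 (0.936 against 8.72 CPM), Slc3a2 (256 against 780 CPM) and Atf4 itself (235 against 685 CPM). In the list of Myc and nutrient signalling, Max (38.8 against 158 CPM) and Rptor (18.2 against 39.5 CPM) were lower among 6 tested. In the methionine and glutathione list, Mtrr, which reactivates methionine synthase, was higher at 24.0 against 6.77 CPM among 8 tested. Of 7 tested genes of serine and glycine use, Serinc3 was higher at 293 against 124 CPM and the racemase Srr lower at 2.97 against 6.15 CPM. Without glycine cleavage, the median log2 ratios of the lists ran from −0.86 (Myc and nutrient signalling) to 0.16 (serine and glycine transport). Over all genes tested the median was −0.18. For glycine cleavage it was 0.39, the value of Gcsh, over 3 tested genes. These include Gldc, known beforehand to be far higher in TIL.

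Within the tumor library, Gldc was concentrated in 1 group of cells. The clusters had been built without the 10 genes and the other genes of the one-carbon lists, and 9 TIL clusters held at least 50 cells. Cluster 17, with 2724 cells, had 264 CPM of Gldc (257 to 271) and a thinned share of 27.7%. It held 23.1% of the TIL γδ T-like cells and 70.7% of their Gldc UMIs. Its leading genes over all other cells were Serpine2, Mmp9, Nrgn, Spp1, Rbm24, Gldc, Areg, Lum, Nrn1 and Tnfsf11, and it had the highest Il17a of the TIL clusters, at 9261 CPM. The growth factor gene Areg, which has a known part in tissue repair, was at 14607 CPM there.

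Behind it came cluster 12 with 67.1 CPM of Gldc (63.6 to 70.8) and cluster 19, the cycling tumor cells, with 57.3 CPM (47.9 to 67.9), and these intervals overlapped. Cluster 13, which had the highest Il17f at 760 CPM, followed with 36.8 CPM of Gldc (34.1 to 39.8), level with the myeloid-like cells. Clusters 11 and 16, the pair highest in the scavenger receptor gene Scart2 (5830411N06Rik), had 14.1 CPM (9.90 to 19.4) and 10.5 CPM (8.68 to 12.6), again with overlapping intervals and both under the myeloid-like level.

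The 3 TIL clusters with little Il17a (7, 8 and 14) had 2.72, 2.63 and 2.99 CPM of Gldc, under clusters 11 and 16. The 3 thus lay far under the myeloid-like level, which is no floor of this library. Their thinned shares of 0.717%, 0.284% and 0.662%, and those of clusters 11 (1.72%) and 16 (2.45%), were under the 3.18% of myeloid-like cells. Per 100 UMIs of Il17a, Gldc had 2.86, 2.68 and 2.99 UMIs in clusters 7, 8 and 14, from 13, 10 and 5 Gldc UMIs. Myeloid-like cells had 2.68, cluster 17 had 2.85, and clusters 12, 19, 13, 11 and 16 had 2.24, 1.60, 0.760, 0.453 and 0.410. Per 100 UMIs of Areg, clusters 7, 8 and 14 had 2.26, 2.17 and 2.26, beside 1.74 in myeloid-like cells and 1.81 in cluster 17. Clusters 12, 19, 13, 11 and 16 had 1.25, 2.23, 1.27, 1.26 and 1.07. The ratios have no intervals, and what they reflect was not tested. In the IEL library, 1 Gldc UMI was counted, in cluster 4, and none in the other 6 clusters.

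**Figure D2:**
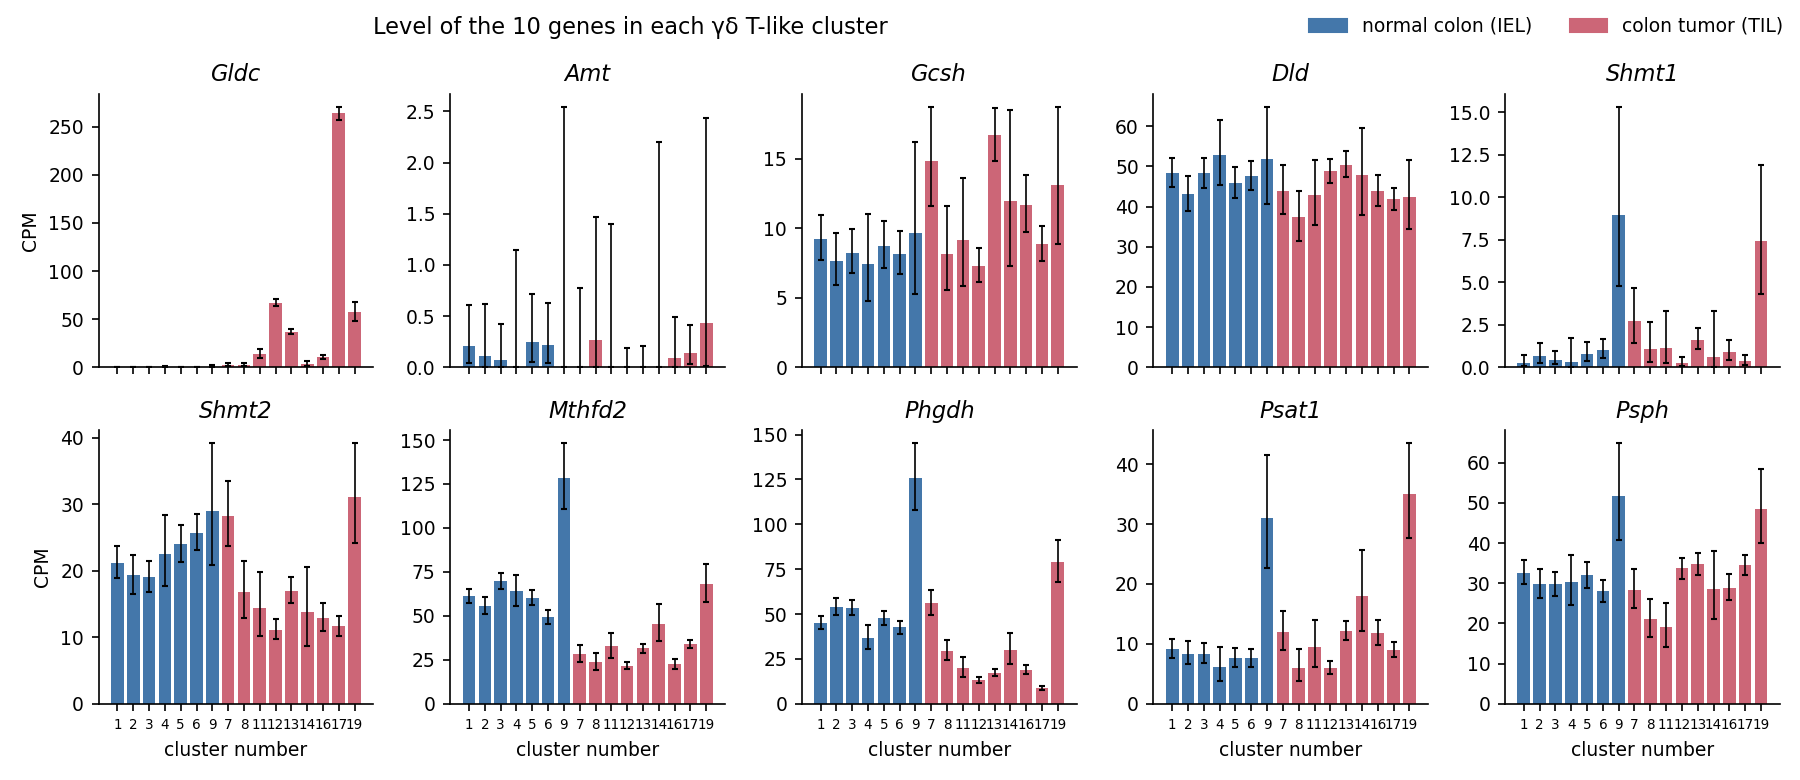
Level of each gene in the γδ T-like clusters with at least 50 cells, in CPM, for 7 IEL and 9 TIL clusters with 95% Poisson intervals. Gldc peaks in cluster 17 at 264 CPM, where Phgdh is at its lowest, 8.64 CPM, and 6 of the other genes peak in the cycling clusters 9 (IEL) and 19 (TIL).

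Phgdh was lowest in the clusters with the most Gldc, although the cycling cluster 19 was high in both. Among TIL clusters it was highest in cycling cluster 19 at 79.1 CPM (68.0 to 91.5) and in cluster 7 at 56.1 CPM (49.6 to 63.2), then in clusters 14 (29.9 CPM) and 8 (29.7 CPM). It was lowest in cluster 12 at 13.3 CPM (11.8 to 15.03) and in cluster 17 at 8.64 CPM (7.44 to 9.99), whose intervals did not overlap. The low end thus held the pair of clusters highest in Gldc, and the non-cycling high end the 3 with little Il17a. Across the 9 TIL clusters the Pearson correlation of log2(CPM + 1) of Gldc and Phgdh was −0.50, and −0.92 over the 8 clusters other than the cycling one. The clusters come from 1 library and differ in depth and RNA make-up, so these values are a description.

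That pattern also set Phgdh apart from Mthfd2 in the contrast of the libraries. The 6 non-cycling IEL clusters had 36.8 to 54.1 CPM of Phgdh, TIL cluster 7 lay just above that range, and clusters 8 and 14 lay under it. When the 1721 TIL cells of clusters 7, 8 and 14 alone were set against all IEL cells, a choice made after the cluster levels were seen, Phgdh was at 42.0 against 49.4 CPM (log2 ratio −0.23, −0.38 to −0.09). For Mthfd2 the same cells had 29.3 against 60.9 CPM (log2 ratio −1.05, −1.23 to −0.88), as low as over all TIL cells. Shmt2 went with Phgdh, at 21.6 against 22.3 CPM (log2 ratio −0.04, −0.25 to 0.16), beside −0.60 over all TIL cells. In that contrast 12.6% of 9283 genes were lower in TIL and 3.91% higher, and Mthfd2 was the only one of the 10 genes past 2-fold at 5 CPM. The 8 non-cycling TIL clusters had 21.6 to 45.4 CPM of Mthfd2 and the 6 non-cycling IEL clusters 49.2 to 69.9 CPM. These are ranges of point values, which did not overlap, and the intervals of the clusters were not compared. One of the IEL clusters, number 2 with 1260 cells, was led by the heat shock genes Hspa1b, Hspa1a and Dnajb1. It had 55.6 CPM of Mthfd2 and 54.1 CPM of Phgdh, within or at the top of the IEL range.

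The other genes varied less among clusters or followed the cell cycle. In TIL, Shmt2 ran from 11.1 CPM in cluster 12 to 31.0 CPM in cycling cluster 19, with 28.2 CPM in cluster 7, and its correlation with Phgdh was 0.91 over 9 clusters and 0.84 without the cycling one. Psat1 ran from 5.98 CPM in cluster 12 to 34.96 CPM in cluster 19, and its correlation with Mthfd2 was 0.88, or 0.71 without the cycling cluster. Dld stayed between 37.3 and 50.5 CPM and Psph between 19.0 CPM in cluster 11 and 48.5 CPM in cluster 19. Amt reached at most 0.437 CPM in any TIL cluster.

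The genes whose level over the 9 TIL clusters was most like that of Gldc, among 6879 genes at 20 CPM or more in some cluster, were Glyat (r = 0.99), Areg and Lrrc17 (0.98 each), Hbegf and Rbm24 (0.98 each), and Ccr1, Crispld2 and Ctdnep1 (0.97 each). Glyat encodes glycine N-acyltransferase, an enzyme that uses glycine. It had 22.1 CPM in TIL cells and 0.0732 (5 UMIs) in IEL cells, and at 56.1 CPM in cluster 17. Within cluster 17 its level was 64.2 CPM in cells with a Gldc UMI and 47.9 CPM in those without, a log2 ratio of 0.42 (0.25 to 0.59). This was not particular to Glyat. Lrrc17 (0.35, 0.19 to 0.52), Areg (0.30), Crispld2 (0.28), Rbm24 (0.28), Hbegf (0.24) and Ccr1 (0.18) also had intervals above equality there. That of Ctdnep1 (0.07, −0.05 to 0.19) spanned it. Of the 10 genes, the one next most like Gldc was Psph, with r = 0.60.

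Gldc UMIs were unevenly spread over tumor cells. Of 11803 TIL γδ T-like cells, 80.2% had no Gldc UMI, 8.85% had 1, 2.80% had 2 and 8.12% had 3 or more, up to 30 in a cell. In cluster 17, 52.8% of cells had none and 25.6% had 3 or more.

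The question of whether Gldc-positive tumor cells carry the rest of the pathway was addressed by comparing the 2333 TIL γδ T-like cells with a Gldc UMI with the 9470 without. Of the positive cells, 1044 had a single Gldc UMI, and whether it came from the cell itself was not tested. None of the other 9 genes passed the 2-fold rule in either direction, of 7 tested, beside 1.24% of 8822 genes higher and 1.59% lower. The median log2 ratio was −0.07 over the 7 and 0.02 over all genes tested. Gldc-positive cells were deeper, with a median of 6969 against 6252 UMIs, so shares are given after thinning to 2000 UMIs.

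Of the partners in glycine cleavage, Amt had 0 UMIs in Gldc-positive cells and 6 UMIs in 6 Gldc-negative cells. The 0 allows up to 0.129% of the 2333 cells to have an Amt UMI and sets no limit on cells that express it, and with so few UMIs the groups could not be told apart. Gcsh was at 9.38 CPM in Gldc-positive and 11.5 CPM in Gldc-negative cells, with thinned shares of 1.76% (1.27 to 2.38) and 1.91% (1.64 to 2.20). Dld was at 44.0 and 46.1 CPM, with thinned shares of 8.29% (7.20 to 9.48) and 8.74% (8.18 to 9.33). No cell of either kind had UMIs of Amt, Gcsh and Dld together, and Gcsh and Dld together were found in 2.96% (2.31 to 3.73) of Gldc-positive and 2.83% (2.51 to 3.18) of Gldc-negative cells without thinning.

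Phgdh was the gene furthest from equality, and it was lower in Gldc-positive cells. It was at 12.3 against 21.8 CPM (log2 ratio −0.82, −1.03 to −0.63), with thinned shares of 2.02% (1.49 to 2.68) and 3.598% (3.23 to 3.99). The ratio passed 2-fold when positive cells needed at least 2 Gldc UMIs (−1.09), when Gldc status was taken after thinning (−1.15) and among cells of 4000 to 10000 UMIs (−1.11). Without cluster 17 it was −0.29, and with Gldc-negative cells reweighted to the cluster make-up of the positive ones it was −0.44, so the size of the difference depended on which clusters were compared.

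The remaining genes lay closer to equality. Mthfd2 was at 33.0 against 28.6 CPM (log2 ratio 0.21, 0.08 to 0.34), and Psph at 36.5 against 31.3 CPM (log2 ratio 0.22, 0.10 to 0.34). Psat1 was at 10.3 against 10.4 CPM (log2 ratio −0.0013, −0.23 to 0.23). Under 7 alternative settings the ratio of Psat1 ran from −0.52 to 0.17. Shmt2 was at 13.0 against 15.3 CPM (log2 ratio −0.23, −0.44 to −0.04), and Shmt1 had 17 and 73 UMIs, or 0.862 and 1.09 CPM. The 3 serine synthesis genes were found together in 0.686% (0.392 to 1.11) of Gldc-positive and 0.581% (0.438 to 0.755) of Gldc-negative cells without thinning.

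**Figure D3:**
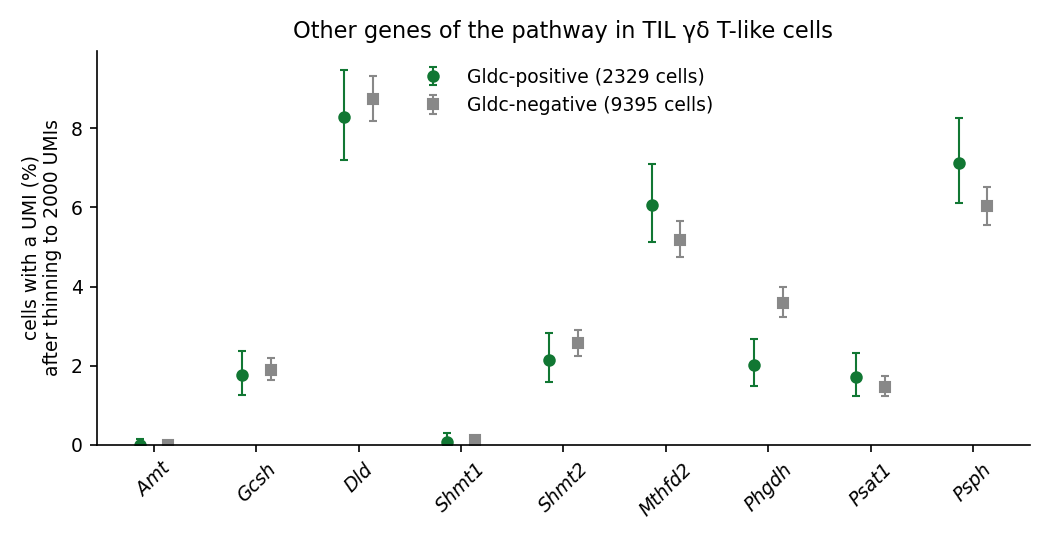
Tumor cells with a UMI of each of the other 9 genes, in percent, after thinning every cell to 2000 UMIs, for 2329 Gldc-positive (circles) and 9395 Gldc-negative cells (squares), with exact 95% intervals. The intervals overlap for 8 of the genes, and that of Phgdh is lower in Gldc-positive cells, 2.02% against 3.598%.

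Counted per cell, Gldc-positive cells held no more of the pathway than the others. At 2000 UMIs the mean number of the other 9 genes with a UMI was 0.292 ± 0.531 (SD over 2329 cells) in Gldc-positive and 0.296 ± 0.533 (SD over 9395 cells) in Gldc-negative cells, and 74.1% and 73.9% had none of them. Without thinning the means were 1.09 ± 1.16 and 0.980 ± 1.06, at the unequal depths given above. At this depth most cells with the transcript of 1 enzyme show none of the others, so these counts cannot show that a cell lacks them.

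Within single clusters the picture was similar. In the 4 clusters with at least 50 Gldc-positive and 50 Gldc-negative cells (12, 13, 16 and 17), none of the other genes passed 2-fold. Gldc in clusters 13 and 16 was level with or under that of myeloid-like cells. Positive cells there may thus include some with Gldc from outside the cell, which was not tested. In cluster 17, with 1285 positive and 1439 negative cells, Phgdh was at 6.33 against 10.996 CPM (log2 ratio −0.80, −1.25 to −0.35). In clusters 12 and 13 its ratio was −0.11 (−0.59 to 0.35) and −0.33 (−0.81 to 0.12), and in cluster 16, which had 76 positive cells, 0.29 (−0.68 to 1.13). Psph was higher in the positive cells of cluster 13, at 45.7 against 32.4 CPM (log2 ratio 0.50, 0.22 to 0.77), and lay near equality in cluster 17, at 33.7 against 35.4 CPM. Dld in cluster 17 was at 38.9 against 44.7 CPM (log2 ratio −0.20, −0.39 to −0.01).

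The level of Phgdh was lower the more Gldc UMIs a cell had. It was 21.8 CPM in cells with none, 15.1 CPM in those with 1 and 14.6 CPM in those with 2, the last 2 with overlapping intervals. With 3 to 5 Gldc UMIs it was 10.4 CPM and with 6 or more 7.23 CPM (4.88 to 10.3). No other gene fell at every step. Mthfd2 was at 28.6, 31.7, 37.5, 31.2 and 34.4 CPM over the same classes, and Psph at 31.3, 36.3, 33.6, 35.8 and 39.5 CPM. Dld (40.0 CPM), Psat1 (7.95 CPM) and Shmt2 (10.8 CPM) were lowest with 6 or more. Their intervals there overlapped those of cells with no Gldc UMI (46.1, 10.4 and 15.3 CPM). Read the other way, Gldc was at 41.5 CPM in the 1301 TIL cells with a Phgdh UMI and at 100.4 CPM in the 10502 without. Gldc was also lower in cells with a UMI of Shmt1 (39.8 against 92.6 CPM), Psat1 (65.8 against 94.6 CPM) and Gcsh (66.4 against 94.8 CPM). The value for Shmt1 rests on 79 cells with 45 Gldc UMIs. The same held for Shmt2 (73.8 against 94.5 CPM) and Dld (82.0 against 96.8 CPM). It was higher in cells with a UMI of Psph (98.7 against 89.6 CPM) or Mthfd2 (96.0 against 90.7 CPM). Cells with and without a UMI of another gene were not matched for depth, cluster or cycling, and these values have no intervals.

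**Figure D4:**
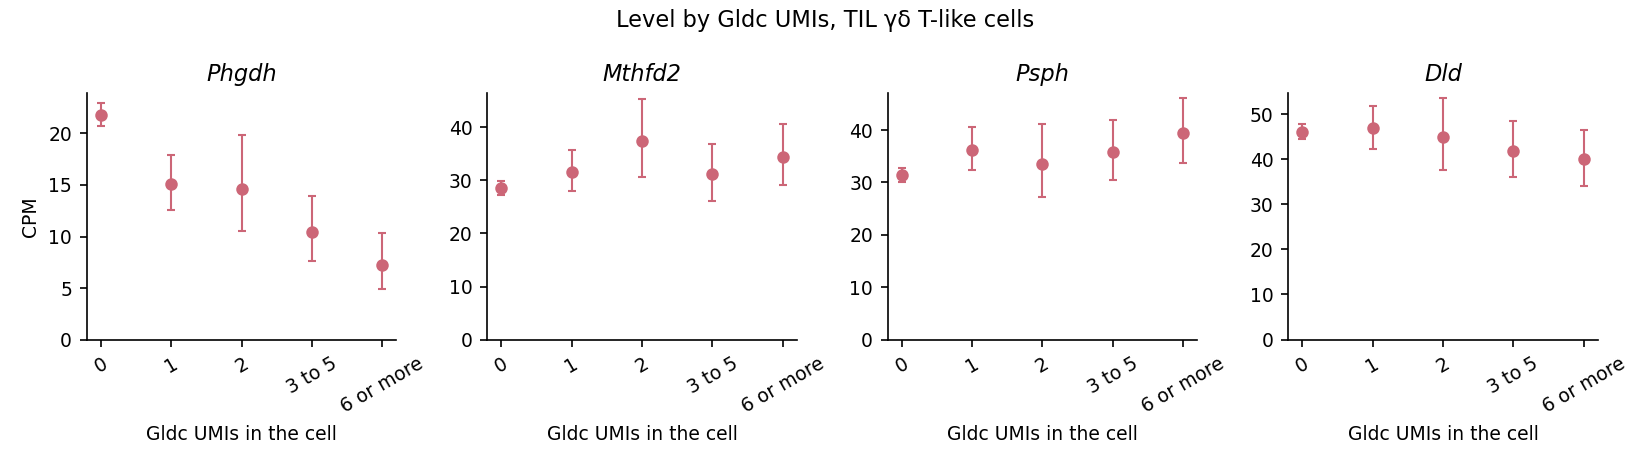
Level of Phgdh, Mthfd2, Psph and Dld in TIL γδ T-like cells with 0, 1, 2, 3 to 5 and 6 or more Gldc UMIs, in CPM with 95% Poisson intervals. Phgdh is at 21.8 CPM in cells with no Gldc UMI and at 7.23 CPM in those with 6 or more. Dld falls from 46.8 CPM at 1 Gldc UMI to 40.0 CPM at 6 or more, with overlapping intervals, and Mthfd2 and Psph do not fall.

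The pathway lists gave the same picture as the members. Apart from Gldc itself, 1 list gene passed the 2-fold rule between Gldc-positive and Gldc-negative TIL cells, Myc, at 2.84 against 6.27 CPM. No gene did among 14 tested of folate metabolism, 18 of the amino acid response, 12 of purine synthesis and 7 of serine and glycine transport, and the median log2 ratios of the lists ran from −0.18 to 0.17. The transporter Slc1a5 was at 269 against 190 CPM, which is 0.50 on the log2 scale, and Cebpb at 211 against 320.5 CPM, or −0.60.

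Apart from Gldc itself, the genes furthest apart between Gldc-positive and Gldc-negative tumor cells were not among the 10 genes. Phgdh was lower in the positive cells but short of 2-fold. The genes furthest higher were Prrx1, Gzmd, Spp1, Penk, Nrn1, Mmp9, Gzme, Cd86, Lum and Nrgn, from 8.04-fold for Prrx1, a transcription factor gene, to 4.07-fold for Nrgn. Spp1, the gene of the secreted protein osteopontin, was at 327 against 56.1 CPM, and Areg was at 11329 against 4022 CPM, or against 8606 CPM with Gldc-negative cells reweighted to the same cluster make-up. Furthest lower were Ly6c2, Cd8a, Car2, Tyrobp, Xcl1, Fcer1g, Ms4a4b, Cd7, Gramd3 and Dapk2, from 16.3-fold for Ly6c2 to 4.75-fold for Dapk2. Cd8a, the CD8 α chain of intraepithelial and cytotoxic cells, was at 8.67 against 74.9 CPM. Of the 10 genes furthest higher, 5 (Spp1, Nrn1, Mmp9, Lum and Nrgn) are also among the 10 leading genes of cluster 17. Il17a was at 7092 against 3758 CPM, but against 6682 CPM after that reweighting, and within cluster 17 at 9080 against 9444 CPM.

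Markers of other cell types moved in both directions in that comparison. The epithelial trefoil gene Tff1 was at 106 CPM in Gldc-positive and 29.2 CPM in Gldc-negative cells, and the 9 epithelial markers summed to 118 and 51.2 CPM, with 2 of 9 at 0 in the positive cells. Tff1 made up that difference: the other 8 summed to 12.6 and 22.0 CPM. The 4 haemoglobin genes summed to 555 and 1612 CPM, and the 7 neutrophil markers to 57.8 and 40.3 CPM. Their part in the result was not tested.

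Cycling cells had more Psat1 in both libraries and more Phgdh and Shmt2 in TIL by the 2-fold rule, and Gldc was not among the genes higher in them. Shmt1 also passed in both libraries, but it reached 5 CPM in the cycling cells alone, the group where it is high. Cells with at least 3 UMIs over 10 cell cycle genes were 285 of the IEL (3.14%) and 335 of the TIL cells (2.84%), and they were set against the 6990 and 9290 cells with none. In TIL, 4 of the 10 genes were at least 2-fold higher in cycling cells, beside 4.73% of 9022 genes, and none was 2-fold lower, beside 1.46%. In IEL, 2 were higher, beside 3.99% of 9347 genes, and none lower, beside 0.642%. Amt in both libraries and Gldc in IEL were under 5 CPM and so not tested, while the shares of all genes are over tested genes. Cycling cells were also deeper, with medians of 13020 against 6147 UMIs in TIL and 10659 against 6690.5 in IEL, and the part of depth was not tested.

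Shmt1, which forms part of nuclear thymidylate synthesis, had the largest ratios, but from few UMIs. In TIL it was at 5.07 against 0.714 CPM, 7.11-fold (4.18 to 11.8), with 25 UMIs in cycling cells. In IEL it was at 5.79 against 0.541 CPM, 10.7-fold (5.70 to 19.8), with 20 UMIs in cycling cells. Phgdh was at 67.0 against 16.7 CPM in TIL, 4.02-fold (3.54 to 4.55), and at 91.8 against 45.9 CPM in IEL, 1.999-fold (1.77 to 2.25), just short of the threshold. Psat1 was 3.37-fold higher in TIL (2.78 to 4.07) and 2.37-fold higher in IEL (1.79 to 3.098). Shmt2 was 2.05-fold higher in TIL (1.70 to 2.46) and 1.24-fold in IEL (0.997 to 1.53). In these genes the tumor library showed the larger ratio for Phgdh and Shmt2, whose intervals do not overlap between the libraries, a difference that was not tested.

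Mthfd2 came to 1.90-fold in TIL (1.66 to 2.17) and 1.54-fold in IEL (1.36 to 1.73), and Psph to 1.44-fold and 1.34-fold. Dld had no difference beyond counting error, at 0.988-fold in TIL (0.857 to 1.13). Gldc was at 61.1 CPM in cycling and 95.5 CPM in other TIL cells, 0.640-fold (0.568 to 0.718). Of Gldc-positive TIL cells 3.56% were cycling and of Gldc-negative cells 2.66%, at the unequal depths given above. For reference, the thymidylate synthase gene Tyms was 12.9-fold higher in cycling TIL cells and 5.91-fold higher in cycling IEL cells.

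**Figure D5:**
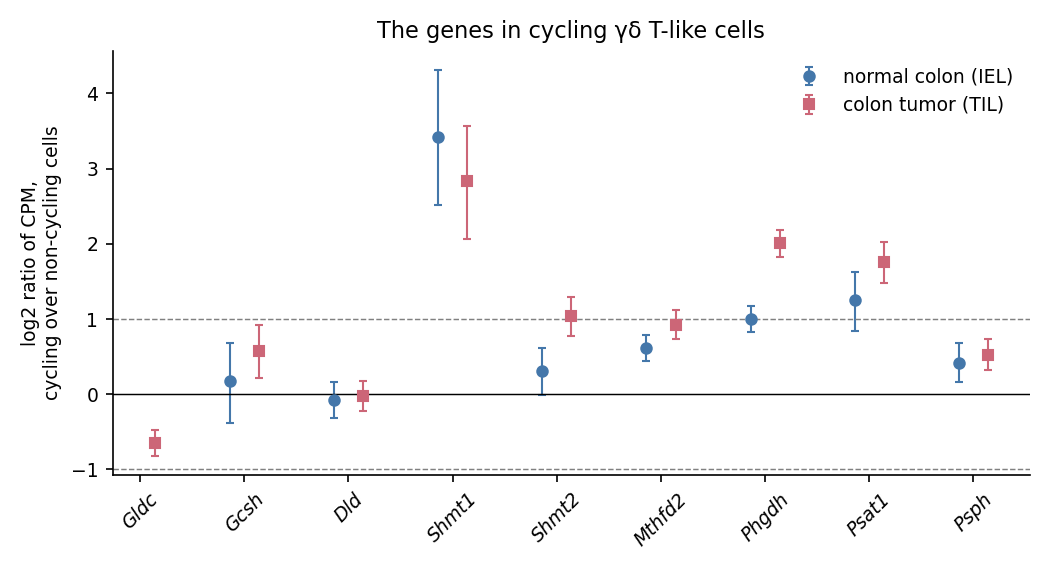
Log2 ratio of CPM in cycling over non-cycling γδ T-like cells for 9 of the genes (Amt had too few UMIs), in IEL (circles) and TIL (squares), with 95% intervals. Dashed lines mark 2-fold. Shmt1 lies highest, at 3.42 in IEL and 2.83 in TIL, from 20 and 25 UMIs in the cycling cells. Phgdh, Psat1 and Shmt2 pass 2-fold in TIL, and Gldc lies at −0.64 in TIL and has no UMI in either IEL group.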

How the data were processed

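The authors deposited whole-number UMI counts per gene and barcode, made with Cell Ranger 6.1.1 on mm10, per the submitters' processing notes and the file headers; barcode and gene name files were read as labels. Droplets were kept with at least 500 genes, 1000 UMIs and at most 10% mitochondrial UMIs (9128 of 9398 IEL, 12407 of 13245 TIL). Scanpy 1.11.5 and igraph 0.11.9 clustered both libraries together (2000 variable genes without the pathway lists, 30 components, 15 neighbours, resolution 1.0) into 19 clusters. All 19 had at least 3 γδ T markers at 50 CPM. The 16 that did not reach 3 markers of another type at 50 CPM and 4-fold, or the doublet limit, were named γδ T-like, none with more markers of another class than of its own among its 10 leading genes. Scrublet called 0 doublets, taken as not working, and a cluster with a median score above 0.2 was left unnamed. CPM were ratios of summed counts with exact conditional 95% intervals, shares had Clopper-Pearson intervals, and no p-value was computed with 1 library per group. Intervals and limits from a count of 0 (3 counts) cover counting error only. The ratio, its interval and the thinning were tested on simulated data. Named genes were all 10 members, up to 4 genes per list and direction past 2-fold, the 10 furthest in each direction at 20 CPM or more for Gldc status, the 8 most like Gldc, and a set of markers with Il17a, Il17f, Trdv4, Scart2, Areg, Gzma and Ccr7. Members and lists were chosen with earlier results of these data known. Gene positions are from GENCODE M21 (GRCm38). Some results are not reported here.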

Additional observations from a re-analysis of the deposited data

Results flagged for a closer look

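Gldc was also counted in tumor droplets that no comparison used. In the 316 TIL droplets of the unnamed cluster with high doublet scores it was at 55.2 CPM, from 237 UMIs, where 3 UMIs would be 0.698 CPM. In the 838 TIL barcodes that failed the filter on cells it was at 19.0 CPM, from 28 UMIs, where 3 UMIs would be 2.04 CPM. What these droplets hold was not tested.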

How the results depend on the processing

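Of the 10 genes, the count lower in TIL was 1 rather than 2 with the stricter cell filter, with the median ratio of all genes set to 1 (both without Mthfd2), and with TIL clusters of low Il17a only (without Phgdh), and the last setting, chosen after seeing the data, left 0 higher, with Gldc at a log2 ratio of 7.54 but under 5 CPM. Under the other 10 settings the log2 ratio of Gldc ran from 8.60 to 13.45, the lowest being a lower bound against 3 UMIs, from cells picked singly by γδ constant genes without Trac. The share of TIL cells with Gldc followed depth, at 6.82% with 1000 UMIs per cell, 15.5% with 4000 and 19.8% without thinning. Phgdh made the count of genes lower in Gldc-positive cells 1 rather than 0 with at least 2 Gldc UMIs, with status after thinning and in cells of 4000 to 10000 UMIs. Gldc of the highest cluster was 289 CPM at resolution 0.5 and 311 CPM at resolution 2.0. No direction past 2-fold reversed. With at least 5 cell cycle UMIs, Phgdh in IEL and Mthfd2 in TIL also passed 2-fold. No paired analysis was possible because each group is 1 library. Counts of Amt and Shmt1 were too low for a ratio between most groups.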

Other observations

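Some genes that mark clusters had a different order by Gldc status within a cluster than over all TIL γδ T-like cells. Ccr7, a receptor of recirculating cells, was at 35.4 CPM in Gldc-positive and 61.6 CPM in Gldc-negative cells of all clusters, but at 39.2 against 12.02 CPM within cluster 12, a log2 ratio of 1.71 (1.39 to 2.02), and in cluster 13 at 76.2 against 89.6 CPM. Scart2 (5830411N06Rik) was at 10.8 against 31.7 CPM over all clusters and at 20.1 against 9.43 CPM within cluster 13, while in clusters 12 (13.3 against 25.5 CPM) and 16 (21.03 against 76.7 CPM) it was lower in the positive cells. Il17f was at 123 against 274 CPM over all clusters, and at 19.5 against 9.86 CPM within cluster 17, a log2 ratio of 0.98 (0.64 to 1.34), while in clusters 13 (586 against 799 CPM) and 16 (136 against 349 CPM) it was lower in them. These genes were picked after their values were seen, and the caution on the positive cells of clusters 13 and 16 given above holds here.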
